A study of Mus musculus with 1012 samples.

Results

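The 10 genes described here are the ligands, receptors and binding proteins of the insulin-like growth factor (IGF) system that the count table lists, namely Igf1, Igf2, Igf1r, Igf2r and Igfbp2 to Igfbp7. They were chosen by symbol, without regard to their values, and are 10 of the 30452 features of the table. The study took cytoplasm from single living mouse cells for sequencing (Live-seq) and sequenced whole lysed cells of the same kinds by Smart-seq2 (scRNA-seq). ASPCs are primary adipose stem and progenitor cells from the subcutaneous fat of female C57BL/6J mice aged 7 to 10 weeks, profiled untreated (ASPC_Pre) or after 2 days of an adipogenic cocktail of dexamethasone, IBMX, rosiglitazone and insulin (ASPC_Post). IBA is an immortalized line of brown preadipocytes made from the interscapular fat of young male C57BL6/J mice, left untreated. RAW cells are the macrophage-like line RAW264.7, given PBS or nothing (RAW_Mock) or lipopolysaccharide (LPS), a bacterial cell wall component (RAW_LPS). Most RAW cells were of RAW-G9, a single clone with GFP fused to relA and with mCherry under control of the Tnf promoter, and the rest were wild type. IBA cells were also profiled by scRNA-seq 1 h or 4 h after Live-seq sampling, or without it.

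IGF1 and IGF2 are secreted relatives of insulin that act through the IGF1 receptor, a tyrosine kinase, to promote growth, survival and differentiation. The IGF2 receptor, which also binds mannose 6-phosphate, takes IGF2 up for breakdown and carries lysosomal enzymes, and it does not signal as a kinase. The binding proteins hold IGFs in the extracellular fluid, prolong their life and either block or aid their access to the receptor. In fat, IGF1 and insulin promote the differentiation of preadipocytes, and macrophages are a known source of IGF1.

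Counts were summed per batch, state and technique, which gave 12 sums for scRNA-seq, 15 for Live-seq and 3 for the IBA cells profiled after sampling, each of at least 4 cells. Levels are CPM, the gene's counts in a sum scaled to the same total in every sum, and the sums of a state from separate batches were its replicates. Total counts per library ranged from 64547 to 1603790 (median 506778.5) in Live-seq and from 41030 to 2671609 (median 467677) in scRNA-seq, with a median of 3943 and 8436 genes detected. Reads carried no molecular identifiers, so intervals on counts and shares, exact Poisson and exact binomial at 95%, cover counting error only. The lines and cells carried the markers of their labels. Summed mesenchymal markers stood at 3274 CPM or more in every IBA and ASPC sum and at 5.63 CPM or less in every RAW sum, and macrophage markers at 2934 CPM or more in every RAW sum. Macrophage markers summed to 8.07 to 606.6 CPM in IBA and 51.3 to 54.99 CPM in ASPC_Pre sums of scRNA-seq, and to 0.694 to 25.7 and 1.25 to 86.0 CPM in Live-seq.

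ASPC and IBA libraries of a pair of batches stood apart in a way that bears on comparisons of the techniques. Each library was expressed as its deviation from the mean of its state, and each Live-seq library of batch 9_4 was correlated with each scRNA-seq library of batch 9_1. A mutual best match within the state was found for 36 of 43 ASPC_Pre, 31 of 37 ASPC_Post, 16 of 17 IBA, 10 of 10 RAW_LPS and 11 of 12 RAW_Mock libraries of Live-seq. In other pairs of batches this share ran from 11.6% to 100%, so the counts alone do not set these batches apart. With batch scRNA it was also 11 of 12 for RAW_Mock libraries of 9_4, and 12 of 13 for IBA libraries of batch 7. Among ASPC_Pre libraries the median correlation across genes was 0.331 with the best match and 0.151 with the next best, whereas the same Live-seq libraries reached 0.101 and 0.0825 with the scRNA-seq libraries of batch 8_8. ASPC_Post libraries reached 0.285 and 0.164, and IBA libraries 0.222 with the best match. The RAW values, 0.0752 and 0.101, lay within the range of the 36 other pairs of batches, 0.0251 to 0.118. When all states were searched together, 87 libraries had a mutual best match and all 87 were of the same state. The ASPC and IBA libraries of these batches cannot be taken as independent between the techniques, and why they match was not tested. For the RAW libraries the matching does not settle this, and their independence was not shown. Of the Live-seq batches, 9_4 alone holds induced ASPCs, as does 9_1 for scRNA-seq.

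The promoters of Igf1, Igfbp2, Igfbp4 and Igfbp6 are shown because the comparisons after LPS turn on Igf1 and Igfbp4, and because Igfbp2 had the lowest ratio after induction and Igfbp6 the highest level in induced cells, in CPM and per kb of exon. Each is the 250 bases before the RefSeq start on GRCm38.p6, on the plus strand of the genome, which is the gene's strand in all of them. Igf1 is at chr10:87860861-87861110, Igfbp2 at chr1:72824230-72824479, Igfbp4 at chr11:99040994-99041243 and Igfbp6 at chr15:102143936-102144185. In the GENCODE annotation Igf1 starts at chr10:87858265, so its window lies inside the annotated gene and not before its first start. Igfbp6 starts there at chr15:102144362, a little after the end of its window. Capitals mark matches, on either strand, to the GC box GGGCGG, the TATA sequence TATAAA, the CCAAT box and AGAACA, the core of glucocorticoid receptor sites. The palindrome TGACGTCA, bound by CREB, was also searched and is in none of the 4.
Igf1: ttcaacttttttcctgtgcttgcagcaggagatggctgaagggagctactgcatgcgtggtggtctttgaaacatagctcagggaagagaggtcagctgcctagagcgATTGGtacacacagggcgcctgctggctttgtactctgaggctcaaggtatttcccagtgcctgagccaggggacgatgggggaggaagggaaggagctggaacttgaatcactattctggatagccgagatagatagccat
Igfbp2: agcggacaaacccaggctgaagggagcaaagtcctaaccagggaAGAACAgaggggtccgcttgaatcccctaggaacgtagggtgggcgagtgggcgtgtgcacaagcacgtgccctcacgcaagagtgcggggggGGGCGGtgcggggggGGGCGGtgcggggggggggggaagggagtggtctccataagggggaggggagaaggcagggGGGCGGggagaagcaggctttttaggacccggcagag
Igfbp4: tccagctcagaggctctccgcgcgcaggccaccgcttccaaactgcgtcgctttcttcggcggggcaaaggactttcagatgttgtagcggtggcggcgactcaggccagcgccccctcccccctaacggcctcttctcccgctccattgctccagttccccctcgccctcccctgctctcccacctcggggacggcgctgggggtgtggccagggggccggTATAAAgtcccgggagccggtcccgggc
Igfbp6: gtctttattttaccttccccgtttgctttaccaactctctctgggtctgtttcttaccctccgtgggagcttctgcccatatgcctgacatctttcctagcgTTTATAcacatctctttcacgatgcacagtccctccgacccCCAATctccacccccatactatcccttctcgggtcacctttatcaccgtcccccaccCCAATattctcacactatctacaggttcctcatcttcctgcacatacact
Igf1 has 1 CCAAT box, read as ATTGG on this strand. Igfbp2 has 3 GC boxes and 1 AGAACA, and RefSeq gives it a second start whose 250 bases hold none of these. Igfbp4 has 1 TATAAA, and Igfbp6 has 1 TATAAA, read as TTTATA, and 2 CCAAT boxes. Of 32851 promoters of the same length, 32.7% held GGGCGG, 12.4% TATAAA, 33.8% CCAAT, 16.1% AGAACA and 1.55% TGACGTCA. The GC content of these promoters was 52.8% for Igf1, 67.2% for Igfbp2, 69.2% for Igfbp4 and 49.6% for Igfbp6, against a median of 52.4% over all promoters.

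Igf1, which encodes the ligand made by many tissues and by macrophages, was highest in RAW_Mock cells and lowest in IBA cells. In scRNA-seq, RAW_Mock sums held 277.4, 401.6 and 280.1 CPM in batches 8_8, 9_1 and scRNA, and IBA sums held 3.54, 13.2 and 17.7 CPM. These groups did not overlap, and IBA cells lay below RAW_Mock by 4.78 on the log2 scale (SE 1.00, adjusted p = 0.00532, edgeR's quasi-likelihood test with Benjamini-Hochberg adjustment over all genes tested). ASPC_Pre sums held 3.89 CPM, from 3 of 16 cells, in batch 8_8 and 140.3 CPM, from 40 of 44 cells, in batch 9_1. Of the 2 ASPC batches, 1 thus lay within the IBA range and 1 above it, and ASPC_Pre differed by test from neither RAW_Mock (adjusted p = 0.135) nor IBA (adjusted p = 0.166). As these are sums over cells, fewer cells with a transcript and less of it per cell cannot be told apart in them. By cell, 97.5% of RAW_Mock, 71.7% of ASPC_Pre and 40.5% of IBA libraries of scRNA-seq had Igf1 counts, and the RAW_Mock and IBA shares were 95.5% and 30.1% once each library was thinned to 50000 counts.

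The span of Igf1 overlaps that of Igf1os on the opposite strand, and counting did not use strand. Whether their exons overlap, and how many reads that affects, was not checked.

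In Live-seq, Igf1 had the same order only in part. RAW_Mock sums held 28.1, 145.3, 188.7 and 222.9 CPM in batches 6, 7, 8_8 and 9_4, the lowest of them from 1 of 8 cells. IBA sums held 111.6, 9.02 and 2.93 CPM in batches 7, 8_8 and 9_4, and 66.9% of the counts behind the highest came from 1 cell. The ranges overlapped through that sum and batch 6 of RAW_Mock. ASPC_Pre sums held 125 CPM, from 2 of 18 cells, and 137.99 CPM, from 32 of 43 cells. Igf1 counts were found in 63.5% of Live-seq RAW_Mock libraries and 18.2% of IBA libraries.

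Igf2, the fetal and imprinted ligand, was close to absent. It had no counts in any RAW sum of either technique and at most 2.71 CPM in any IBA sum, that value being 13 counts from 1 cell. The highest ASPC values were 1.63 CPM in induced cells of scRNA-seq, from 4 of 35 cells with 78.6% of the counts in 1 of them, and 0.563 CPM in Live-seq, or 9 counts from 2 cells. Igf2 passed no filter on low counts, so that 9 of the 10 genes were tested.

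**Figure D1:**
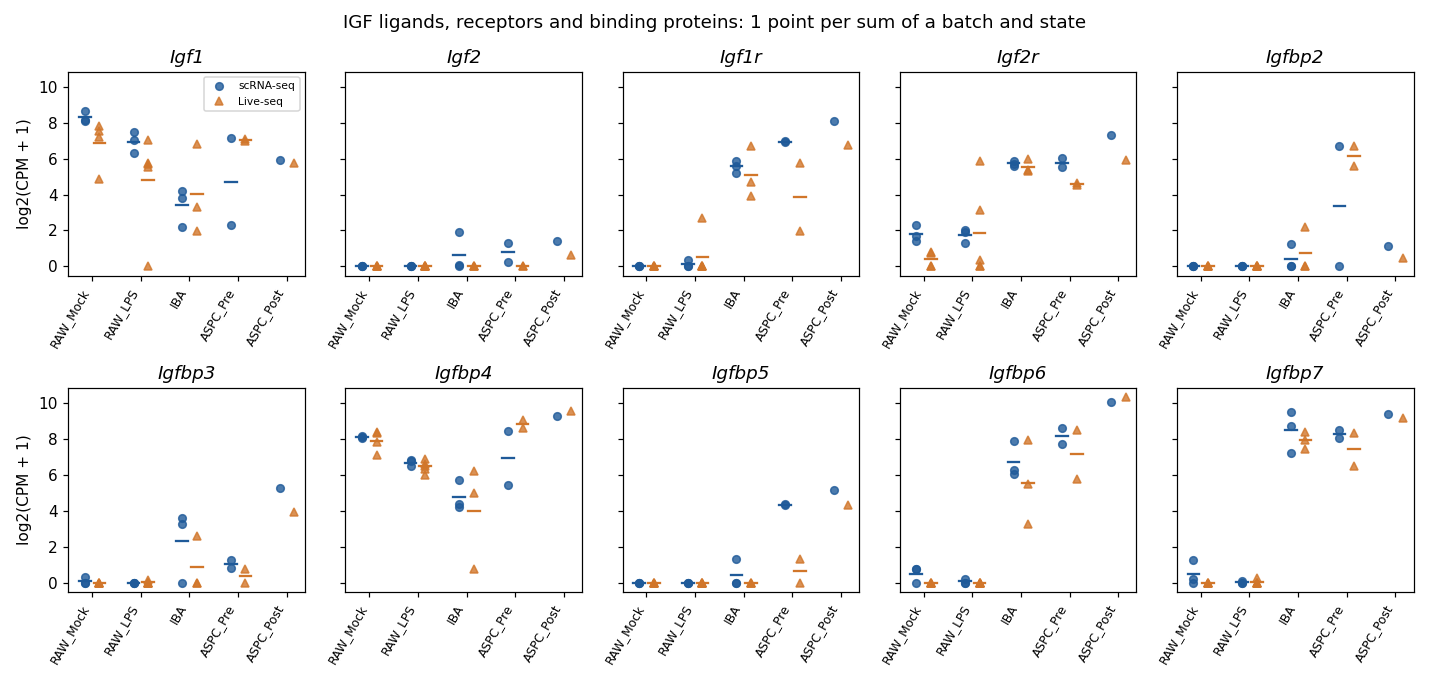
Levels of the 10 IGF genes, as log2(CPM + 1), in every sum of libraries by state (horizontal axis) and technique (circles for scRNA-seq, triangles for Live-seq), with 1 point per batch and a bar at the mean. Igf1 and Igfbp4 are high in RAW_Mock sums, Igf1r, Igf2r, Igfbp6 and Igfbp7 are high in IBA and ASPC sums, and Igf2 stays at or under 2.71 CPM.

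The receptors had the opposite pattern. Igf1r, the signalling receptor, held 57.9, 47.9 and 36.4 CPM in the scRNA-seq IBA sums and 125 and 120.1 CPM in the ASPC_Pre sums. RAW_Mock cells of scRNA-seq had 1 Igf1r count in all. IBA cells lay 2775-fold above RAW_Mock in pooled counts, with a counting interval of 497.6 to 109628 that is this wide because of the single count, and ASPC_Pre cells 7755-fold (1391 to 306381). Both differences passed edgeR's test, with adjusted p of 3.52e-05 and 2.03e-05. Here and below, an adjusted p beside a fold of pooled counts or a lower bound is that of edgeR's fit to the sums. The fold itself was not tested and can differ from the fitted difference. IBA and ASPC_Pre sums did not overlap, but their difference of -1.74 on the log2 scale (SE 0.55) missed the threshold (adjusted p = 0.0686).

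In Live-seq, RAW_Mock cells had no Igf1r counts, against 101.7, 14.1 and 25.1 CPM in IBA sums and 2.99 and 53.6 CPM in ASPC_Pre sums. Against a floor of 3 counts over the RAW_Mock state, Igf1r was at least 616.2-fold higher in IBA and at least 470-fold higher in ASPC_Pre cells. Neither passed the test across all genes (adjusted p = 0.121 for IBA).

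Igf2r, the clearance receptor, was present in RAW cells at a low level. RAW_Mock sums of scRNA-seq held 1.62, 3.99 and 2.18 CPM, IBA sums 48.1, 52.1 and 57.8 CPM and ASPC_Pre sums 44.7 and 65.2 CPM. The IBA and ASPC_Pre ranges overlapped, and both lay wholly above RAW_Mock. IBA cells were higher than RAW_Mock by 4.46 on the log2 scale (SE 0.41, adjusted p = 6.42e-05) and ASPC_Pre cells by 4.67 (SE 0.43, adjusted p = 7e-05). Live-seq sums held 61.2, 40.7 and 38.8 CPM in IBA, 22.2 and 23.8 CPM in ASPC_Pre and 0, 0, 0.774 and 0.671 CPM in RAW_Mock cells, a difference between IBA and RAW_Mock of 93.9-fold in pooled counts (58.4 to 162) with an adjusted p of 0.188. The span of Igf2r overlaps that of Airn, a noncoding gene on the opposite strand, and overlap of their exons was not checked either.

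The binding proteins differed in the cells that held them. Igfbp4, which binds IGFs and blocks their action until it is cleaved by the protease PAPP-A, was the only one with more than 1.39 CPM in RAW_Mock sums. Those sums held 275.4, 264.72 and 285.7 CPM in scRNA-seq and 136, 338.09, 224.1 and 323.99 CPM in Live-seq, where 99.1% of the lowest came from 1 cell. Per kilobase of exon, RAW_Mock cells of scRNA-seq held a mean of 62.3 CPM of Igfbp4 and 32.3 CPM of Igf1.

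Igfbp4 was low in IBA cells, with 17.9, 19.9 and 50.8 CPM in scRNA-seq and 73.3, 0.694 and 31.2 CPM in Live-seq. It was high in ASPC_Pre cells, with 43.04 and 344.6 CPM in scRNA-seq and 534.2 and 393.5 CPM in Live-seq. ASPC_Pre and RAW_Mock did not differ in Igfbp4 by edgeR's test. The log2 difference was -0.21 (SE 0.69, adjusted p = 0.824) in scRNA-seq and 1.61 (SE 1.04, adjusted p = 0.566) in Live-seq. The scRNA-seq ranges of IBA and ASPC_Pre overlapped, but within both shared batches IBA was lower, and in a model with batch the difference was -3.07 on the log2 scale (SE 0.73, adjusted p = 0.0311). It was -0.94 (adjusted p = 0.389) without batch 9_1. Igfbp4 was also lower in IBA than in RAW_Mock cells by scRNA-seq, at -3.28 (SE 0.62, adjusted p = 0.00327). In Live-seq the difference between IBA and ASPC_Pre was -4.93, with p = 0.00296 before and 0.725 after adjustment in edgeR's test.

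Igfbp6, which prefers IGF2 over IGF1, and Igfbp7, a secreted relative with low affinity for IGFs, were high in both adipose cell types and near absent from RAW cells. Igfbp6 held 65.7, 237.7 and 76.2 CPM in IBA and 214.9 and 398.6 CPM in ASPC_Pre sums of scRNA-seq, against 0.693, 0 and 0.699 CPM in RAW_Mock. IBA was 355.96-fold above RAW_Mock in pooled counts (244.5 to 540, adjusted p = 0.00036) and ASPC_Pre 884.8-fold (607.8 to 1343, adjusted p = 0.000192). IBA and ASPC_Pre overlapped for this gene (difference -1.77, adjusted p = 0.158). In Live-seq it held 44.3, 8.56 and 241.97 CPM in IBA and 54.6 and 368.8 CPM in ASPC_Pre sums and had no counts in RAW cells, which places IBA at least 1172-fold and ASPC_Pre at least 3309-fold higher, with adjusted p of 0.014 and 0.0113.

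Igfbp7 held 146.5, 422.5 and 736.95 CPM in IBA sums of scRNA-seq, 261.4 and 357.8 CPM in ASPC_Pre sums and 1.39, 0 and 0.146 CPM in RAW_Mock sums. Pooled counts were 3217-fold (1798 to 6446) and 2007-fold (1121 to 4022) above RAW_Mock, with adjusted p of 0.000106 and 0.000102. In Live-seq, IBA sums held 174, 243.8 and 337.99 CPM and ASPC_Pre sums 91.03 and 326.8 CPM, with no counts in RAW_Mock cells, so that IBA was at least 2670-fold and ASPC_Pre at least 3024-fold higher (adjusted p = 0.00293 and 0.00443). Igfbp7 was found in 99.3% of IBA, 98.3% of ASPC_Pre and all ASPC_Post libraries of scRNA-seq. Its span overlaps those of Polr2b and Gm34648 on the opposite strand, and overlap of exons was not checked either.

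Per kilobase of exon, the order of levels in scRNA-seq IBA cells was Igfbp7 (mean 360 ± 244.3 CPM per kilobase, SD, n = 3), Igfbp6 (113.8), Igfbp4 (6.69), Igf2r (5.66) and Igf1r (2.82). In ASPC_Pre cells it was Igfbp6 (275.9 ± 117, n = 2), Igfbp7 (256.07 ± 56.4), Igfbp4 (43.9), Igfbp2 (27.8), Igf1r (7.3), Igf1 (7.28) and Igf2r (5.91). Igfbp6 and Igfbp7 did not differ beyond their spread in ASPC_Pre cells, and nor did the receptors and Igf1.

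Igfbp2, Igfbp3 and Igfbp5 were found in few cells. Igfbp2, a binding protein abundant in developing tissue, had no counts in RAW cells. It held 0 CPM in batch 8_8 and 102.6 CPM in batch 9_1 of scRNA-seq ASPC_Pre cells, where 10 of 44 cells had it and 1 cell gave 74.4% of the counts. In Live-seq it held 47.1 CPM, from 2 of 18 cells, and 102.03 CPM, from 7 of 43 cells, with 85.2% of the latter from 1 cell. These leading cells, with 1859 and 1383 counts, are mutual best matches among the matched libraries described above. The IBA sums of both techniques held at most 3.5 CPM, and those of the sampling experiment at most 5.63 CPM.

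Igfbp3, the main carrier of IGFs in blood, held at most 1.44 CPM in any ASPC_Pre sum and at most 11.1 CPM in any IBA sum, 84.9% of that from 1 cell. Igfbp5, which binds to extracellular matrix, held 19.7 and 18.7 CPM in scRNA-seq ASPC_Pre sums, from 5 of 16 and 6 of 44 cells, and 0 and 1.45 CPM in Live-seq. It had no counts in RAW cells and none in IBA cells but for 48 counts of 1 cell. In pooled counts the ASPC_Pre state of scRNA-seq was at least 1879-fold above RAW_Mock for Igfbp2 and at least 404.1-fold for Igfbp5. In edgeR's fit, which gave the p, the log2 differences were 19.05 (adjusted p = 0.00211) and 16.88 (adjusted p = 0.00282). In pooled counts of scRNA-seq, IBA was 134-fold below ASPC_Pre for Igfbp2 and 26.9-fold for Igfbp5. The fitted log2 differences were -12.4 (adjusted p = 0.0251) and -10.2 (adjusted p = 0.0262). Igfbp2 passed the filter on low counts only through ASPC_Pre cells, and Igfbp5 only through ASPCs. Their being tested thus depended on the cells in which they were higher. Both calls of IBA against ASPC_Pre were lost in a model without batch (adjusted p = 0.126 and 0.0967). Without batch 9_1, which holds all ASPC_Pre counts of Igfbp2 in scRNA-seq, the fitted difference of Igfbp2 turned to 1.42 on the log2 scale, and Igfbp5 had an adjusted p of 0.175.

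Counted over the 9 genes tested, 7 were higher and 2 lower in IBA than in RAW_Mock cells of scRNA-seq, in which 33.7% of all 13566 genes were called (21.8% higher and 11.9% lower), at an adjusted p under 0.05 and a difference over 1 on the log2 scale. Of the 7, Igfbp2 and Igfbp5 had IBA counts in batch scRNA alone, those of Igfbp5 from 1 cell, and the count of genes called in either direction fell from 9 to 6 without that batch, as it did without batch 9_1. ASPC_Pre cells had 6 genes higher than RAW_Mock and none lower, with 40% of all genes called (27.2% higher and 12.8% lower). IBA cells had 3 genes lower than ASPC_Pre, Igfbp2, Igfbp4 and Igfbp5, and none higher, with 11.2% of all genes called (3.69% higher and 7.47% lower). Igfbp2, Igfbp3 and Igfbp5 passed the filter on low counts only through ASPCs, and they enter these counts and the medians below. The median log2 difference of the 9 genes was 6.67 for IBA against RAW_Mock, or 4.46 with the 2 genes without RAW counts set at their lower bound, against 0.21 over all genes. For ASPC_Pre against RAW_Mock it was 10.24, or 8.66 with bounds, against 0.28, and for IBA against ASPC_Pre -1.77 against -0.12. In Live-seq, 2 genes, Igfbp6 and Igfbp7, were called higher in IBA than in RAW_Mock, with 2.26% of all genes called (1.4% higher and 0.869% lower). The same 2 genes were called higher in ASPC_Pre, with 2.01% of all genes called (1.5% higher and 0.505% lower). None was called in IBA against ASPC_Pre, with 0.0223% of all genes called (0.00743% higher and 0.0149% lower). The comparisons against RAW_Mock share those sums.

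Induction of ASPCs for 2 days was measured in batch 9_4 of Live-seq and batch 9_1 of scRNA-seq, which also held uninduced cells. Within these batches Igfbp3, Igfbp5, Igfbp6, Igf1r, Igf2r, Igfbp4 and Igfbp7 had more CPM in induced cells, and Igf1 and Igfbp2 had less, in both techniques. The libraries of these batches match cell by cell, so the techniques do not agree independently. The share of all genes with the same direction in both was not counted. Igfbp6 held 398.6 CPM before and 1082 CPM after induction in scRNA-seq, a ratio of 2.72 (2.65 to 2.78), and 368.8 and 1282 CPM in Live-seq, a ratio of 3.48 (3.38 to 3.58). It was the most abundant of the 10 per kilobase of exon in induced cells, at 973.4 CPM per kilobase in scRNA-seq and 1153 in Live-seq, followed by Igfbp7 at 567.8 and 472.4. The sums of batch 8_8, with 214.9 and 54.6 CPM of Igfbp6 in uninduced cells, were lower still.

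Igfbp3 was near 0 before induction and present in a part of the cells after it. It held 1.44 CPM in uninduced and 38.4 CPM in induced cells of scRNA-seq, a ratio of 26.7 (19.0 to 38.7), and 0.692 and 14.2 CPM in Live-seq, a ratio of 20.5 (11.3 to 41.7). The share of all ASPC libraries with Igfbp3 counts was 13.3% before and 51.4% after induction in scRNA-seq, and 3.28% and 32.4% in Live-seq. After thinning to 50000 counts it was 5% and 40%, and 1.64% and 24.3%. A single cell gave 46.1% of the induced counts in scRNA-seq, and without the leading cell of each state the ratios were 32.3 and 94.5.

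The receptors were higher in induced cells by similar factors. Igf1r held 120.1 and 273.8 CPM in scRNA-seq, a ratio of 2.28 (2.18 to 2.39), and 53.6 and 109.1 CPM in Live-seq, a ratio of 2.03 (1.87 to 2.21). Igf2r had ratios of 2.41 (2.27 to 2.57) and 2.48 (2.20 to 2.80), reaching 157.4 CPM in scRNA-seq and 58.99 CPM in Live-seq. The induced sums of both receptors lay above every uninduced sum of the same technique.

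Igfbp7 had ratios of 1.92 (1.87 to 1.97) in scRNA-seq and 1.75 (1.69 to 1.81) in Live-seq, and Igfbp4 of 1.84 (1.79 to 1.89) and 1.93 (1.87 to 1.99). Single cells gave 34.8% and 38.6% of the induced Igfbp4 counts, and without the leading cell of each state its ratios were 1.73 and 1.70. Igfbp5 had ratios of 1.83 (1.61 to 2.07) in scRNA-seq and 12.9 (8.46 to 20.7) in Live-seq, from 6 of 35 and 6 of 37 induced cells, and without the leading cell of each state they were 4.30 and 14.4.

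Igf1 and Igfbp2 went the other way. Igf1 held 140.3 CPM before and 60.04 CPM after induction in scRNA-seq, 2.34-fold lower, and 137.99 and 54.1 CPM in Live-seq, 2.55-fold lower. Batch 8_8 does not bear this out in scRNA-seq, since its uninduced sum held 3.89 CPM. Igfbp2 held 102.6 and 1.16 CPM in scRNA-seq and 102.03 and 0.375 CPM in Live-seq, 88.4-fold and 271.8-fold lower, and without the leading cell 22.9-fold and 40.8-fold lower. The share of libraries with Igfbp2 counts in these batches was 22.7% before and 8.57% after induction in scRNA-seq and 16.3% and 2.70% in Live-seq. Summed mesothelial markers (Msln, Upk3b, Krt19 and Wt1) moved alongside, at 36.5 to 162 CPM in uninduced scRNA-seq sums and 37.2 to 213.97 CPM in uninduced Live-seq sums, against 0.29 and 0.0626 CPM in induced sums. The scRNA-seq sum of batch 8_8 had 162 CPM of these markers and no Igfbp2 counts, and the part of such cells in the result was not tested.

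None of these differences passed a test across genes. A model over both techniques, with technique and batch as 1 factor, called 0 of the 9 genes and 0% of all genes by edgeR, with 600 genes at an unadjusted p under 0.05, whereas DESeq2 called 99 genes and none of the 9. The lowest p of the 9 genes was that of Igfbp2 (p = 0.0107, adjusted p = 0.75), followed by Igfbp3 at a log2 difference of 4.70 (SE 2.23, p = 0.0511, adjusted p = 1). Fitted log2 differences were 1.69 for Igfbp6, 1.61 for Igf1r, 1.73 for Igf2r, 1.43 for Igfbp7, 1.00 for Igfbp4 and -0.71 for Igf1, each with an adjusted p of 1. Their median over the 9 genes was 1.61 against 0.05 over all genes tested. Igfbp2 passed the filter on low counts only through uninduced ASPCs and Igfbp3 only through induced ASPCs. Each was thus tested through the state in which it was higher, and both enter this median. The model counts the matched batches as separate replicates, although their libraries match cell by cell. Induced cells had 1031 CPM of summed adipogenic markers in scRNA-seq and 708.7 CPM in Live-seq, against 514.3 to 845.6 and 216.2 to 567.7 CPM in uninduced sums. Adipoq and Cidec were at 0 in induced cells of both techniques, Cd36 in scRNA-seq and Plin1 in Live-seq. RAW_Mock sums held 545.6 to 1372 CPM in scRNA-seq and 574.5 to 874.2 CPM in Live-seq. The sum of these markers thus does not set induced cells apart from RAW_Mock cells.

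**Figure D2:**
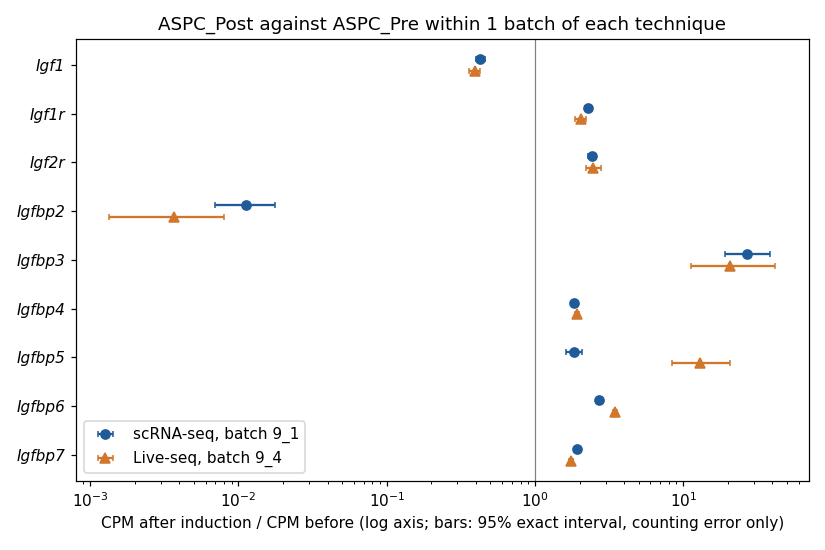
Ratio of CPM after to CPM before induction (logarithmic axis) for the 9 IGF genes tested, in ASPC sums of scRNA-seq batch 9_1 (circles) and Live-seq batch 9_4 (triangles), with 95% exact intervals that cover counting error only. Igf1 and Igfbp2 lie below a ratio of 1 in both techniques, and Igfbp3 has the largest ratio of the 9, 26.7 in scRNA-seq and 20.5 in Live-seq.

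The labels pair 9 ASPC libraries of Live-seq taken before induction with 9 taken after it, as samples of the same cell, and the pairing was not checked here. Igf1 was lower in the second sample of 7, higher in 1 and at 0 in both samples of 1. Its median was 74.5 CPM before (0 to 634.3) and 0 CPM after induction (0 to 176). Igfbp2 had counts in 3 of the first samples and in none of the second. The remaining genes had no common direction: Igf1r was higher in 4 and lower in 5 cells, Igf2r higher in 4 and lower in 3, Igfbp4 higher in 3 and lower in 6, Igfbp6 higher in 5 and lower in 4, Igfbp7 higher in 3 and lower in 6, and Igfbp3 higher in 2 and lower in 1. These cells are of 1 batch and were not tested. Igf2 and Igfbp5 had no counts in them.

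In RAW cells, Igfbp4 was lower after LPS than in mock-treated cells of the same batch in all 7 pairs of sums, 3 of scRNA-seq and 4 of Live-seq. Mock-treated sums of batches 8_8, 9_1 and scRNA held 275.4, 264.72 and 285.7 CPM in scRNA-seq and the LPS sums 88.9, 107.9 and 112.4 CPM. In Live-seq, mock-treated sums of batches 6, 7, 8_8 and 9_4 held 136, 338.09, 224.1 and 323.99 CPM and the LPS sums 97.1, 90.1, 80.4 and 119 CPM, while the wild-type LPS sum held 62.8 CPM. The groups did not overlap in either technique. The share of all genes without overlap, or lower in all 7 pairs, was not counted. The median log2 difference over all genes was -0.01 in scRNA-seq and -0.48 in Live-seq. The mock level was 3.10, 2.45 and 2.54 times the LPS level in scRNA-seq and 1.40, 3.75, 2.79 and 2.73 times in Live-seq. The mean log2 difference over the 7 pairs was -1.36 ± 0.44 (SD), with a two-sided exact permutation p of 0.0156, the smallest 7 pairs allow. This test and the 2 genes it was run on, Igfbp4 and Igf1, were chosen after the values had been seen, and the p is not adjusted for that choice. With Benjamini-Hochberg adjustment over the 2 genes alone, the exact permutation p was 0.0313. The test takes the matched batches as separate, and also the pairs of batch 8_8, which is in both techniques. Without Live-seq batch 9_4 the difference was -1.35 ± 0.48, lower in 6 of 6 pairs (exact p = 0.0313, or 0.0625 adjusted over the 2 genes). Batch 8_8 still counts in both techniques there.

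Igf1 was lower after LPS in 6 of 7 pairs. The LPS sums of scRNA-seq held 179.2, 131 and 80.4 CPM, all below the mock-treated range of 277.4 to 401.6 CPM. In Live-seq the LPS sums of batches 6, 7, 8_8 and 9_4 held 45.4, 53.1, 129 and 51.6 CPM, and batch 6 was the exception, with a mock-treated sum of 28.1 CPM from 1 of 8 cells. The mean log2 difference was -1.06 ± 0.96 (SD, 7 pairs, exact permutation p = 0.0625). The share of libraries with Igf1 counts was 97.5% in mock-treated and 94.6% in LPS-treated cells of scRNA-seq and 63.5% and 32% in Live-seq.

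Across all genes, the LPS comparison called none of the 9 genes in either technique, against 1.23% of all genes in scRNA-seq (0.921% higher and 0.31% lower) and 0% in Live-seq. By edgeR, Igfbp4 differed by -1.33 (SE 0.57) in scRNA-seq with p = 0.0452 and an adjusted p of 0.331, and by -1.27 (SE 0.85, adjusted p = 1) in Live-seq. Igf1 differed by -1.004 (SE 0.86, adjusted p = 0.681) and -0.80 (adjusted p = 1). An unadjusted p under 0.05 was reached by 1975 genes in scRNA-seq and 540 in Live-seq, and DESeq2 also called none of the 9, with 5.26% and 4.79% of all genes called. The median log2 difference of the 9 genes was -1.004 against -0.01 over all genes in scRNA-seq and -0.80 against -0.48 in Live-seq. These medians include fitted values of genes with few or no counts in RAW cells, so they do not describe the family. Igfbp2 and Igfbp5 had no counts in either RAW state of either technique, and Igfbp6 had none in Live-seq. Summed LPS response genes stood at 422.7 to 2842 CPM in mock-treated and 11837 to 25577 CPM in LPS-treated sums of scRNA-seq. In Live-seq they stood at 791.2 to 5051 CPM and 10555 to 28095 CPM, so that the ranges did not overlap in either technique.

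The wild-type RAW264.7 line is that of Live-seq batch 5Reseq, with 11 LPS-treated cells and 1 untreated cell, and line and batch cannot be told apart. The untreated cell formed no sum of its own but is counted in the Live-seq RAW_Mock shares and pooled counts. Igf2r held 56.6 CPM (50.3 to 63.5) in the 11 LPS-treated cells and 0.795 CPM in the 39 LPS-treated RAW-G9 cells. It was counted in 6 of 11 cells, or 54.5% (23.4% to 83.3%), against 2 of 39, or 5.13% (0.627% to 17.3%). Igf1 had the reverse pattern, with no counts in the 11 wild-type cells, which allows a share of up to 28.5%, and 58.3 CPM in RAW-G9 cells, from 16 of 39 (41.03%). Igfbp4 held 62.8 CPM in wild-type cells, 92.9% of it from 1 cell, and 97.7 CPM in RAW-G9 cells.

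The techniques did not differ by test for any of the 9 genes. Live-seq against scRNA-seq called 0% of all genes in each of RAW_Mock, IBA and ASPC_Pre cells by edgeR, with 4.56%, 4.17% and 1.47% of genes at an unadjusted p under 0.05, and DESeq2 called 0.958%, 1.02% and 0.531% of genes and none of the 9. The lowest p among the 9 was that of Igfbp7 in RAW_Mock (p = 0.011, adjusted p = 0.734), a gene without counts in Live-seq and at most 1.39 CPM in scRNA-seq. The difference between the techniques in the LPS effect was -0.01 (SE 1.08) for Igfbp4 and 0.11 (SE 1.40) for Igf1, on the log2 scale. Batch 8_8 was the only one with cells of both techniques. Shares of cells with counts were lower in Live-seq, at 52.9% against 97.5% for Igfbp4 in RAW_Mock, 34.1% against 88.2% for Igf1r in IBA and 37.7% against 71.7% for Igf2r in ASPC_Pre cells.

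IBA cells lysed 1 h or 4 h after Live-seq sampling were compared with cells of the same batch that had not been sampled. Igf1r held 50.6 CPM in 70 unsampled cells, 50.4 CPM in 49 cells at 1 h and 63.3 CPM in 43 cells at 4 h. Igf2r held 36.9, 22.6 and 41.6 CPM, Igfbp6 44.3, 41.4 and 71.6 CPM, and Igfbp7 371.3, 359.2 and 225.4 CPM. Igf1 stood at 3.2, 7.52 and 0.817 CPM and Igfbp4 at 8.65, 15.96 and 19.8 CPM. Each time is 1 sum, so that no test was run. The values of Igfbp7 lay within the range of the other 3 IBA batches of scRNA-seq, 146.5 to 736.95 CPM. Igfbp6 lay below their range of 65.7 to 237.7 CPM in unsampled cells and at 1 h and within it at 4 h. Igf2r lay below the range of those batches throughout. Igfbp4 was below it in unsampled cells and at 1 h, and Igf1 in unsampled cells and at 4 h. Igf1r was within it but for a higher value at 4 h. Igfbp2, Igfbp3 and Igf2 did not exceed 5.63 CPM, and Igfbp5 had no counts.

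Cell by cell, the matched ASPC libraries ranked alike for the IGF genes found in enough of them. Over 36 matched pairs of ASPC_Pre libraries, Spearman's rho between the Live-seq and scRNA-seq level was 0.827 for Igfbp6, 0.786 for Igfbp4, 0.685 for Igf1, 0.648 for Igf1r, 0.613 for Igfbp7 and 0.418 for Igf2r. Over 31 pairs of ASPC_Post libraries it was 0.918 for Igfbp6, 0.829 for Igf2r, 0.802 for Igfbp7, 0.782 for Igfbp4, 0.687 for Igf1, 0.674 for Igf1r and 0.528 for Igfbp3. These are descriptions, since the pairs were found by likeness over 9396 genes that include these. The leading Igfbp4 cells, with 1942 and 2615 counts, were mutual best matches as the leading Igfbp2 cells were. Of 31 ASPC_Pre Live-seq libraries labelled as the first of 2 samplings, 25 had such a match among the uninduced scRNA-seq libraries.

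Among the cells of a state, some pairs of IGF genes varied together and others did not. Over the pairs of genes found in enough ASPC_Pre cells, Spearman's rho ranged from -0.277, for Igf1 and Igfbp7, to 0.517 in scRNA-seq and from -0.0274, for the same pair, to 0.5 in Live-seq. The highest in scRNA-seq was that between Igfbp6 and Igfbp7, at 0.517 over 44 scRNA-seq and 0.43 over 43 Live-seq libraries, followed by that between the receptors, at 0.505 and 0.422. Igf1 and Igf1r had a rho of 0.000952 and 0.15, and Igf2r and Igfbp4 of -0.177 and 0.0269. In ASPC_Post cells the receptors had a rho of 0.566 over 35 and 0.621 over 37 libraries, and Igf2r and Igfbp7 of 0.514 and 0.624. The libraries of a batch share their preparation and differ in depth, which was not removed beyond the scaling to CPM.

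The genes most like each IGF gene were taken by Pearson's r of log2(CPM + 1) over the 12 scRNA-seq sums. Igfbp6 was most like Mgst1, a microsomal glutathione transferase (0.997, and 0.99 over the 15 Live-seq sums), and Mark1 (0.996 and 0.771). Igfbp7 was most like Dclk1 (0.996 and 0.944) and Triqk (0.995 and 0.701), Igf1r like Dzip1 (0.999 and 0.86) and Col4a2, a basement membrane collagen (0.998 and 0.905), and Igf2r like P4ha2, a collagen prolyl hydroxylase (0.992 and 0.799), and Sesn3 (0.992 and 0.824). Igf1 was most like Naglu, a lysosomal enzyme (0.965 and 0.0794), and As3mt (0.95 and 0.317), and Igfbp4 like the lysosomal proteases Ctsf (0.936 and 0.568) and Tpp1 (0.914 and -0.058). For the genes found in few cells the nearest were Ckmt1 (0.993 and 0.529) and Arsi (0.987 and 0.677) for Igfbp2, Notch3 (0.972 and 0.45) and Fzd8 (0.96 and 0.758) for Igfbp3, and Epha3 (0.997 and 0.593) and Pde3a (0.995 and 0.836) for Igfbp5. The likeness rests in all cases on differences between few cell types.

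Partners of the IGF system, a list of 20 genes of which 15 were tested, were compared in the same way. Against RAW_Mock in scRNA-seq, 10 were higher and 2 lower in IBA, where 21.8% of all genes were called higher and 11.9% lower. In ASPC_Pre cells 11 were higher and 1 lower, where 27.2% of all genes were called higher and 12.8% lower. Lower than RAW_Mock were Stc2, a relative of Stc1, in both, at 46.1 CPM in RAW_Mock, 1.33 CPM in IBA and 3.48 CPM in ASPC_Pre sums, and the lysosomal protease gene Ctsd in IBA, by 2.51 on the log2 scale. Ghr, the growth hormone receptor, held a mean of 0.0228 CPM in RAW_Mock, 60.4 CPM in IBA and 129.6 CPM in ASPC_Pre sums. Its 2 counts in RAW_Mock put it 2047-fold (566.4 to 16910) higher in IBA and 4033-fold (1116 to 33316) higher in ASPC_Pre cells. The protease gene Htra1 had no counts in RAW_Mock and was at least 973.3-fold higher in IBA and at least 1908-fold higher in ASPC_Pre cells. Pappa, which encodes the protease that cleaves IGFBP4, was at least 725.4-fold higher in ASPC_Pre than in RAW_Mock cells, and Stc1, whose product inhibits that protease, at least 210.7-fold. The median log2 difference of the 15 genes was 6.39 for IBA and 8.27 for ASPC_Pre, or 5.63 and 7.72 with the 3 genes without RAW_Mock counts at their lower bound.

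Between IBA and ASPC_Pre cells, 1 of the 15 partners was higher and 4 were lower, where 3.69% of all genes were called higher and 7.47% lower. Igf2bp1, an RNA-binding protein of fetal tissue named for Igf2 mRNA, held 86.5 CPM in IBA against 7.40 CPM in ASPC_Pre and 0.013 CPM in RAW_Mock sums, a log2 difference from ASPC_Pre of 3.19. Pappa was lower in IBA, at 1.65 against 25.8 CPM (-6.88), as were Socs2, an inhibitor of growth hormone signalling (-2.41), Ghr (-1.99) and Lrp1. In Live-seq, Ghr alone of the 15 was called, with 1 count in RAW_Mock and 2567-fold (460.2 to 101459) more in IBA (adjusted p = 0.0492) and 3883-fold (696.3 to 153448) more in ASPC_Pre cells (adjusted p = 0.0446).

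Of 29 genes of insulin and IGF receptor signalling, all tested, 10 were higher and 2 lower in IBA than in RAW_Mock cells of scRNA-seq, where 33.7% of all genes were called in either direction. In ASPC_Pre cells 13 were higher and 2 lower, where 40% of all genes were called, with median log2 differences over the 29 of 0.46 and 0.81, unchanged with bounds. Grb10, an adaptor that inhibits the insulin and IGF1 receptors, held 0.0194 CPM in RAW_Mock, from 2 counts, 216.5 CPM in IBA and 266.2 CPM in ASPC_Pre sums, and was the only one called in Live-seq, at least 2837-fold and 2785-fold higher. Its relative Grb14 had no counts in RAW_Mock and held 10.5 CPM in IBA and 133 CPM in ASPC_Pre sums, a log2 difference between these of -4.38. Irs1, the docking protein of the receptors, was at least 780-fold higher in IBA and at least 864.6-fold higher in ASPC_Pre than in RAW_Mock, and the docking protein gene Gab1 at least 651.2-fold higher in IBA. Inpp5d, which encodes the phosphatase SHIP1 of blood cells, held 208.7 CPM in RAW_Mock and had no counts in ASPC_Pre, at least 1617-fold lower. It was also lower in IBA, at 1.89 CPM, and Pik3cb was lower by 1.65 on the log2 scale in ASPC_Pre cells. Insr, the insulin receptor, was higher in IBA (34.2 CPM) than in ASPC_Pre cells (9.28 CPM), by 1.62, and Akt1 was lower by 1.46. Neither list had a called gene after LPS, after induction, between techniques, or between IBA and ASPC_Pre in Live-seq.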

How the data were processed

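The authors aligned read 1 with STAR 2.6.1c to GRCm38 (Ensembl 87), counted uniquely mapped reads per gene with HTSeq without strand, and deposited 1 table of raw counts for all 1012 libraries, already filtered for quality. Without 20 genes of the negative controls and 84 of ribosomal proteins, these counts were summed per technique, batch and state of at least 3 cells. Groups follow the labels. A gene was tested if it had at least 2 counts in 15% of the cells of a state and passed filterByExpr (minimum count 2, minimum proportion 0.05). Tests used edgeR 4.0.16 in R 4.3.3 (TMM, glmQLFit, glmQLFTest, prior count 0.125) with state and batch in the model and Benjamini-Hochberg adjustment over all genes tested. The labels give shared batches, which pair the sums. Deviations of sums of the same batch correlated at 0.0939 to 0.432 in scRNA-seq and -0.0358 to 0.245 in Live-seq. A call needed an adjusted p under 0.05 and over 1 on the log2 scale. Genes without counts in a state there were given a lower bound, with 3 counts in that state. Alternatives were DESeq2 1.42.0, no batch, other filters, the newer edgeR fit and leaving out each batch. The code was tested on simulated data. Gene positions and exon lengths are from GENCODE vM21, with 30340 identifiers matched, and promoters from RefSeq on GRCm38.p6, with 10 of 10 genes matched.

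All 10 genes are named. For each with at least 10 CPM in a scRNA-seq sum, the 2 genes with the highest correlation over scRNA-seq sums are named, and of each list up to 4 called genes per comparison by size of difference. Lrp1, Stc2, Ctsd and Pik3cb are named outside this rule, after their values were seen. The genes and lists were chosen with earlier results of these data known. Nothing was tested in states with 1 batch within a technique, or over cells.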

Additional observations from a re-analysis of the deposited data

Results flagged for a closer look

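In groups of 4 to 10 sums, the highest or lowest sum was compared with the rest by Dixon's criterion, which marks about 1 in 20 groups by chance, and 4 of the 9 groups with counts were marked. That rate does not hold for Igf1r, Igfbp3 and Igfbp7, where 4 of 5 sums are at 0 and the criterion is met whatever the value of the fifth. All are LPS-treated RAW cells of Live-seq with 5 sums, of which at least 2 had no counts of the gene. Igf2r stood at 56.6 CPM in batch 5Reseq, the wild-type line, against at most 7.69 CPM in the RAW-G9 batches, from 6 of 11 cells. Igf1r stood at 5.39 CPM in the same batch, which is 28 counts from 1 cell, with no counts in the other 4 sums. Igfbp3 stood at 0.101 CPM in batch 7 and Igfbp7 at 0.207 CPM in batch 9_4, each from 1 count.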

How the results depend on the processing

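Of the counts of IGF genes called, 132 values under an alternative stayed within 1.5 times the reported count and 13 did not. For IBA against ASPC_Pre in scRNA-seq (3 genes), the count was 1 without the replicate block of batch, 5 with the newer edgeR fit and 0 to 4 when each batch was left out, with 0 without batch 9_1, 2 without batch scRNA and 4 without batch 8_8. For the same comparison in Live-seq (0 genes), DESeq2 called 1. For IBA against RAW_Mock in Live-seq (2 genes), DESeq2 and the newer fit each called 4, and leaving out a batch gave 0 to 2, with 0 without batch 8_8 or 9_4 and 1 without batch 7. For ASPC_Pre against RAW_Mock in Live-seq (2 genes), the newer fit called 4, and leaving out a batch gave 0 to 2, with 0 without 8_8 or 9_4, the 2 batches with ASPC_Pre cells. The number of genes lower in more ASPC pairs than higher was 5, and 3 after thinning. Directions turned in 3 cases of fitted log2 differences that depend on the prior count. Igfbp2 in IBA against ASPC_Pre of scRNA-seq ranged from -13.62 to 1.42, the latter without batch 9_1. In IBA against RAW_Mock Igfbp2 ranged from -0.00838 to 7.38 and Igfbp5 from -0.000289 to 7.44, both lowest without batch scRNA, the only one with their counts in IBA cells. Igfbp4 in IBA against ASPC_Pre had an adjusted p of 0.063 without batch scRNA. The block changed no other call by over 1.5 times. Where not given, the cause was not tested. Igf2, Igfbp3 and Igfbp5 were each found in few cells, which limits their precision.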
